A study of Mus musculus with 6 samples.

Results

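The potassium channel genes Kcnc1, Kcnc2 and Kcnc4, of the Kv3 family, and Kcns1, Kcns2 and Kcns3, of the Kv9 family, were examined in the pre-limbic cortex (PLc) of ketamine- and saline-treated mice. They were chosen by symbol from the table of normalized counts and make up 6 of its 37620 genes. All 6 were measured in every mouse.

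All 6 mice were male C57Bl/6 animals of 9 weeks. Ketamine, a blocker of the NMDA type of glutamate receptor, was injected i.p. at 30 mg/kg on 5 days in a row, and controls received saline by the same route and schedule. The PLc is a medial area of prefrontal cortex. It was dissected 2 days after the last injection, and RNA from each mouse was sequenced as 1 library. Saline mice carry the numbers 1, 6 and 10, and ketamine mice the numbers 3, 5 and 9. The comparison asks whether the repeated NMDA receptor block left the expression of these channels different from control.

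Kv3 channels open only at strongly depolarised potentials and close quickly, which keeps action potentials brief and lets a neuron fire at high rates. In the cortex they are best known from the fast-spiking interneurons that express parvalbumin (PV), although other neurons also carry them. Kv9 subunits form no working channel of their own, and instead assemble with Kv2 subunits and alter how the mixed channel opens and closes. Kcns3 is known in the cortex for its enrichment in PV interneurons.

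The selectivity filter, the short stretch of the pore that lets potassium through, shows how the families are related. The genomic sequence around it is given for the 6 genes, read 5′ to 3′ on the coding strand of the mm9 build, with the 5 codons of the filter in capitals. Each stretch is 57 bases of coding sequence within a single exon, at chr7:53683322-53683378 (plus strand), chr10:111893264-111893320 (plus), chr3:107250696-107250752 (minus), chr2:163990569-163990625 (minus), chr15:34769346-34769402 (plus) and chr12:11098360-11098416 (minus).
Kcnc1: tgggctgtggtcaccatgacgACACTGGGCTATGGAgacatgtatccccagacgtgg
Kcnc2: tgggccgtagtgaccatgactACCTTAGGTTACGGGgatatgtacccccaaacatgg
Kcnc4: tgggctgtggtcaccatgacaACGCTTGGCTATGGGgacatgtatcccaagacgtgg
Kcns1: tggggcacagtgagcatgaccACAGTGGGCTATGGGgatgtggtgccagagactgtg
Kcns2: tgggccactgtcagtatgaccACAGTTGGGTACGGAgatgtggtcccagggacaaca
Kcns3: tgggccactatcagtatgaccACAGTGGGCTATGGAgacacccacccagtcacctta
The second codon of the filter encoded leucine in each of the Kcnc genes shown and valine in each of the Kcns genes. Over the stretch, between 43 and 52 of the 57 bases were identical between any pair of these Kcnc genes, between 39 and 43 within Kcns, and between 32 and 37 across the families. Over the whole coding sequence, identity was 68.8% to 74.1% within Kcnc, 62.0% to 62.8% within Kcns and 55.2% to 60.2% across them. The longest run of identical bases between transcripts of any of the 15 pairs was 29, which is shorter than the 100-base reads. No other annotated gene overlapped any of the 6.

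The libraries held between 26273436 and 32643726 reads, recovered from the deposited values, and every library expressed Pvalb, the gene of PV, at 516 normalized counts or more. A normalized count is the number of reads of a gene divided by a size factor for its library. Marker genes of other cells and regions set some of the libraries apart. The summed level of 13 measured genes of striatal neurons reached 73849 in ketamine mouse 3 and 38308 normalized counts in ketamine mouse 5, against 11397 in ketamine mouse 9 and 10459 to 13046 in saline mice. Olfactory bulb genes summed to 1584, 1208 and 8112 in ketamine mice 3, 5 and 9, against 162 and 179 in saline mice 1 and 6. In saline mouse 10 the same list summed to 2605, of which Slc6a3, the dopamine transporter gene, made up 1821. Slc6a3 stood at 4.79 and 2.90 normalized counts in saline mice 1 and 6, and Th, which encodes the enzyme of the first step of dopamine synthesis, at 611 in saline mouse 10 against 39.3 and 32.8. Oligodendrocyte genes summed to 366977 in saline mouse 10, against 41317 and 53025 in the other saline mice and 100715 to 153845 in ketamine mice. Differences of dissection and of treatment cannot be told apart in these libraries, so results for the channels are also given without the mice that stand apart.

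For the test, log2(normalized count + 1) was taken and fitted with limma in 16127 genes whose mean over the mice reached 10 normalized counts, and all 6 channel genes passed this filter. At an adjusted p under 0.05, limma called 0 of the 6 and 0.0% of all genes, with 937 genes at an unadjusted p under 0.05. All 6 fold changes were below 0, as were 53.0% of those over all genes tested, and the median log2 fold change was -0.40 for the 6 genes and -0.01 for all genes. Kcnc2, Kcns1 and Kcns3 were lower in every ketamine mouse than in any saline mouse, whereas Kcnc1, Kcnc4 and Kcns2 overlapped between the groups. This held for 3 of the 6, and 4.66% of all genes were likewise lower in every ketamine mouse. The same 3 genes had an unadjusted limma p under 0.05 and a lower level, as did 2.37% of all genes. The quasi-likelihood test of edgeR, run on recovered reads, called 0 genes and put 1007 at an unadjusted p under 0.05. DESeq2 called 182 genes at an adjusted p under 0.05, 145 higher and 37 lower, and Kcnc2 and Kcns1 were among the latter, 2 of 6 against 0.229% of all genes. With 3 mice against 3, an exact permutation test cannot give a p under 0.1.

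**Figure D1:**
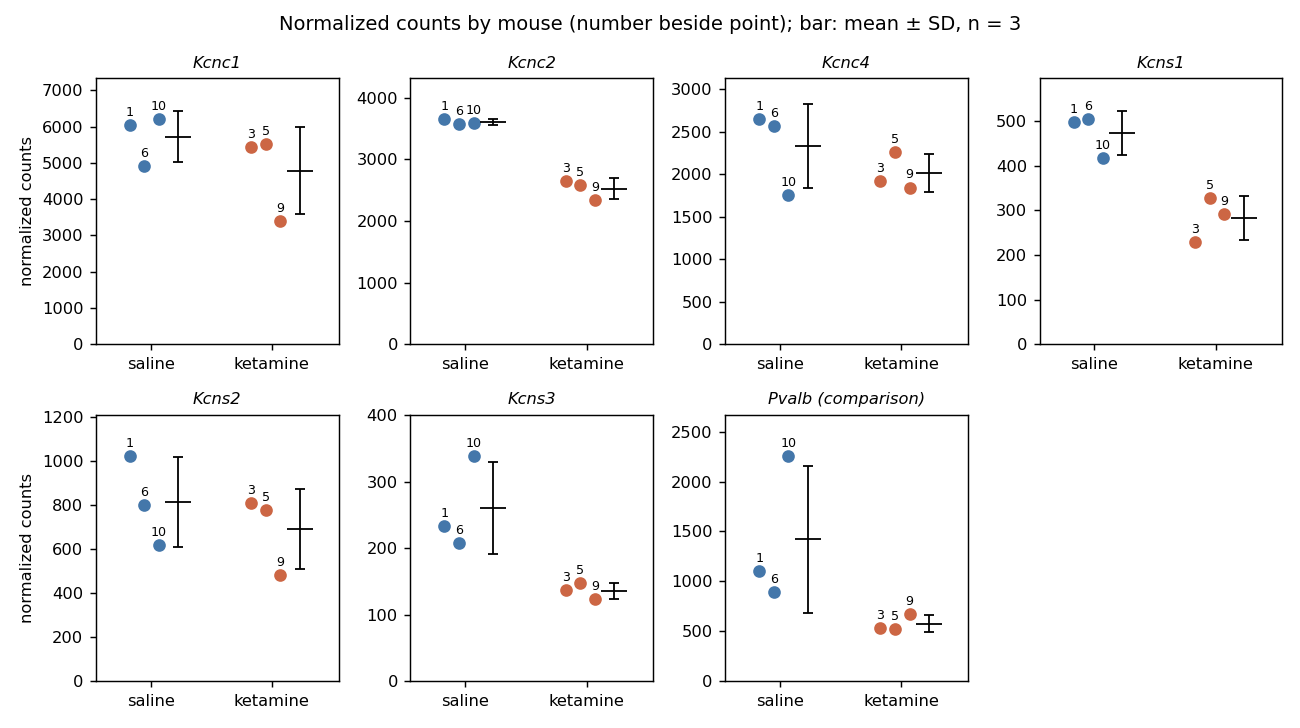
Normalized counts of the 6 Kv3 and Kv9 genes, and of Pvalb for comparison, in each saline (blue) and ketamine (orange) mouse, with the mouse number beside each point and a bar for the mean ± SD (n = 3). The ketamine points of Kcnc2, Kcns1, Kcns3 and Pvalb lie below every saline point, and those of Kcnc1, Kcnc4 and Kcns2 overlap with the saline points.

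Kcnc2, a Kv3 gene of fast-spiking and other interneurons, separated the groups with the least scatter. Its normalized counts were 3657, 3569 and 3594 in saline mice 1, 6 and 10, against 2650, 2590 and 2335 in ketamine mice 3, 5 and 9. The saline mice lay close together, with a coefficient of variation of 1.26%, and every ketamine mouse was below them. The ketamine mean, 2525 ± 167 (SD, n = 3), was 70.0% of the saline mean, 3607 ± 45.5 (SD, n = 3). The limma log2 fold change was -0.52 (SE 0.116, 95% interval -0.79 to -0.24, adjusted p = 0.380, unadjusted p = 0.00269). DESeq2 gave -0.51 (SE 0.128, adjusted p = 0.0105), and edgeR gave -0.50 (adjusted p = 0.401). Kcnc2 lies at chr10:111708179-111903360 on the plus strand (ENSMUSG00000035681).

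Kcnc1, the other Kv3 gene best known from PV interneurons, was the most counted of the 6. It is at chr7:53651867-53693745 on the plus strand (ENSMUSG00000058975). Its normalized counts were 6042, 4910 and 6211 in saline mice 1, 6 and 10, against 5435, 5521 and 3393 in ketamine mice 3, 5 and 9. Only ketamine mouse 9 was below all saline mice. The means were 5721 ± 707 in saline and 4783 ± 1205 in ketamine mice (SD, n = 3), and limma gave a log2 fold change of -0.29 (SE 0.219, 95% interval -0.80 to 0.23, adjusted p = 0.999).

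Kcnc4, whose Kv3 channels inactivate quickly, also overlapped. It is at chr3:107241221-107261816 on the minus strand (ENSMUSG00000027895), and its normalized counts were 2648, 2570 and 1756 in saline mice 1, 6 and 10, against 1920, 2261 and 1842 in ketamine mice 3, 5 and 9. Saline mouse 10 had the lowest value of all, below the 3 ketamine mice. The log2 fold change by limma was -0.19 (SE 0.190, 95% interval -0.64 to 0.25, adjusted p = 0.999), with means of 2325 ± 494 and 2007 ± 223 (SD, n = 3).

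Among the Kv9 genes, Kcns3 had the largest fitted fold change, in a downward direction. It is at chr12:11097008-11157648 on the minus strand (ENSMUSG00000043673). Its normalized counts were 233, 208 and 339 in saline mice 1, 6 and 10, against 137, 147 and 123 in ketamine mice 3, 5 and 9. The ketamine mice lay close together and below all saline mice, among which mouse 10 stood highest. The ketamine mean, 136 ± 11.8 (SD, n = 3), was 52.2% of the saline mean, 260 ± 69.6 (SD, n = 3). Limma gave a log2 fold change of -0.91 (SE 0.222, 95% interval -1.43 to -0.38, adjusted p = 0.425, unadjusted p = 0.00440), and DESeq2 gave -0.93 (adjusted p = 0.0544).

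Kcns1, a Kv9 subunit also studied in sensory neurons, is at chr2:163989355-163996849 on the minus strand (ENSMUSG00000040164). It stood at 497, 505 and 417 normalized counts in saline mice 1, 6 and 10, against 230, 328 and 291 in ketamine mice 3, 5 and 9. The lowest saline mouse was above the highest ketamine mouse. The ketamine mean of 283 ± 49.6 was 59.8% of the saline mean of 473 ± 48.5 (SD, n = 3). Limma gave a log2 fold change of -0.75 (SE 0.182, 95% interval -1.18 to -0.32, adjusted p = 0.416, unadjusted p = 0.00417). DESeq2 gave -0.73 (adjusted p = 0.0475), just past its threshold.

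Kcns2, the third Kv9 gene, is at chr15:34767110-34772095 on the plus strand (ENSMUSG00000050963). Its normalized counts were 1025, 800 and 619 in saline mice 1, 6 and 10 against 810, 780 and 482 in ketamine mice 3, 5 and 9. The groups overlapped. The means were 815 ± 203 and 691 ± 181 (SD, n = 3), and the limma log2 fold change of -0.25 had an interval from -0.87 to 0.37 (adjusted p = 0.999). The exact permutation test gave p = 0.1 for Kcnc2, Kcns1 and Kcns3, p = 0.4 for Kcnc1 and Kcnc4, and p = 0.5 for Kcns2 (two-sided, n = 3 per group). The intervals of Kcnc1, Kcnc4 and Kcns2 hold both 0 and the fitted value of Kcnc2. In bulk tissue, fewer cells of a type and less RNA per cell cannot be told apart.

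The PLc expressed Kcnc1, Kcnc2 and Kcnc4 at higher levels than the Kv9 genes. Levels were compared between genes as normalized counts per kb of exon, which corrects for gene length. In saline mice the means were 772 ± 164 for Kcnc4, 627 ± 77.5 for Kcnc1, 582 ± 7.34 for Kcnc2, 186 ± 46.3 for Kcns2, 174 ± 17.9 for Kcns1 and 85.1 ± 22.8 for Kcns3 (SD, n = 3). These 3 Kv3 genes overlapped with their neighbours in this order, and so did Kcns2 with Kcns1. Gaps between neighbours that exceeded the range of the saline mice lay between Kcnc2 and Kcns2 and between Kcns1 and Kcns3, and every one of the 6 mice showed these orders. In ketamine mice the means per kb were 666 ± 73.9 for Kcnc4, 524 ± 132 for Kcnc1, 408 ± 27.0 for Kcnc2, 157 ± 41.2 for Kcns2, 104 ± 18.3 for Kcns1 and 44.4 ± 3.86 for Kcns3. With the length of the longest transcript, Kcnc1 came to 737 per kb in saline mice and kept its place in the order.

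Summed per kb, Kcnc1, Kcnc2 and Kcnc4 came to 2131, 1967 and 1843 in saline mice 1, 6 and 10, against 1660, 1773 and 1360 in ketamine mice 3, 5 and 9. The 3 Kv9 genes summed to 493, 437 and 406 in saline and 314, 347 and 257 in ketamine mice. Both sums were lower in every ketamine mouse, as the plot of stacked levels shows. They include Kcnc1, Kcnc4 and Kcns2, which overlapped singly. How often sums of other genes separate in this way was not examined. The share of each gene in its sum overlapped between the groups. Kcnc4 took 38.7% ± 6.26 in saline and 41.9% ± 3.31 in ketamine mice, and Kcnc2 took 29.5% ± 1.89 and 25.7% ± 2.07 (SD, n = 3). Kcns3 took 19.5% ± 6.82 of the Kv9 sum in saline mice, with 27.3% in mouse 10, and 14.6% ± 0.950 in ketamine mice.

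**Figure D2:**
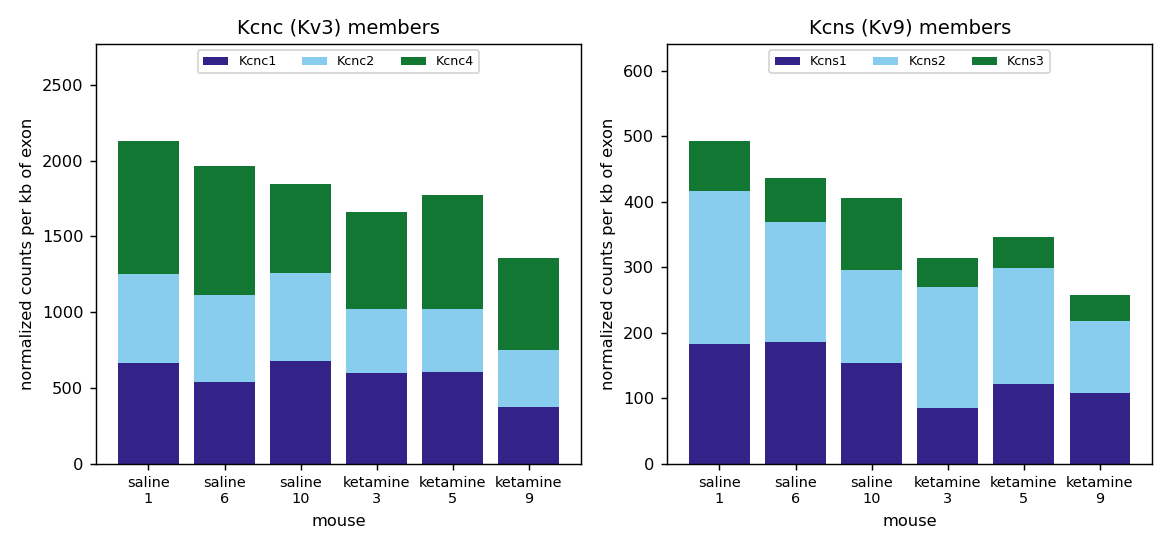
Normalized counts per kb of exon of Kcnc1, Kcnc2 and Kcnc4 (Kv3, left) and of Kcns1, Kcns2 and Kcns3 (Kv9, right), stacked in each mouse on separate vertical scales. The Kv3 stack is 1843 or more in saline mice and 1773 or less in ketamine mice, and the Kv9 stack is 406 or more in saline mice and 347 or less in ketamine mice.

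Ratios within a library compare the members with one another free of the scaling of the library. Of the 15 pairs of the 6 genes, 5 had log2 ratios that did not overlap between the groups. These 5 pairs have genes in common, and the share of such pairs over all genes was not taken. Kcns3 was low in ketamine mice relative to 3 others, with log2 ratios higher by 0.71 for Kcnc4 to Kcns3, by 0.62 for Kcnc1 to Kcns3 and by 0.39 for Kcnc2 to Kcns3. The ratio of Kcnc4 to Kcns1 was higher by 0.56, and that of Kcnc2 to Kcnc4 differed by -0.32. Each gave an exact permutation p of 0.1, the smallest possible, and an adjusted p of 0.3 over the 15 pairs. Within the Kv3 family, the log2 ratio of Kcnc2 to Kcnc4 was 0.47, 0.47 and 1.03 in saline mice 1, 6 and 10 against 0.46, 0.20 and 0.34 in ketamine mice 3, 5 and 9. The separation from saline mice 1 and 6 was narrow. Part of these differences rested on saline mouse 10, without which they were 0.32 for Kcnc4 to Kcns3, 0.18 for Kcnc2 to Kcns3 and -0.14 for Kcnc2 to Kcnc4. The other 2 moved less, to 0.45 for Kcnc4 to Kcns1 and 0.48 for Kcnc1 to Kcns3.

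Pvalb itself was lower in every ketamine mouse, with 1105, 893 and 2261 normalized counts in saline mice 1, 6 and 10, against 535, 516 and 670 in ketamine mice 3, 5 and 9. Limma gave -1.20 on the log2 scale (SE 0.334, adjusted p = 0.579), and DESeq2 gave -1.30 (adjusted p = 0.0321). The log2 ratio of each of the 6 channel genes to Pvalb had a higher mean in ketamine mice, by 0.29 for Kcns3 up to 1.0 for Kcnc4, and all 6 ratios overlapped between the groups. The smallest exact permutation p among them was 0.2, and the smallest adjusted over the 6 ratios was 0.45. Saline mouse 10 had the highest Pvalb, and without it the differences came to 0.58 for Kcnc1, 0.28 for Kcnc2, 0.42 for Kcnc4, -0.036 for Kcns1, 0.37 for Kcns2 and 0.10 for Kcns3.

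The 6 genes did not vary together as a single block. Over the 6 mice, Pearson's r of log2 values was 0.94 between Kcns3 and Pvalb, and 0.82 once the group means were removed. Kcnc4 ran the other way, with r of -0.14 and -0.92 against Pvalb. Kcnc1 and Kcnc2 had r of 0.65 and 0.92, and Kcnc4 and Kcns2 of 0.77 and 0.73. These values describe 6 libraries that share their treatment groups and, in saline mouse 10, a single library with high Pvalb and high oligodendrocyte genes.

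Each member was compared with the 12412 other genes whose mean reached 100 normalized counts. Those with log2 values most like it over the 6 mice were found by Pearson's r. Kcnc2 was most like Hapln4, which encodes a link protein of the perineuronal nets around PV interneurons, and Lsm11, with r of 0.981 and 0.978, and 71 genes had r over 0.9. Kcns3 was most like Stim2 and Rnf141, with r of 0.997 and 0.986, and 78 genes over 0.9. For Kcns1 the nearest were Sytl2 and Trpc6, for Kcnc1 Sgcb and Slc24a2, for Kcnc4 Ptprn and Adcy2, and for Kcns2 Nfe2l1 and Ipo7. Kcns2 and Kcnc4, which overlapped between the groups, had 936 and 582 genes over 0.9, and with 6 mice such values are common.

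The partners of these channels were examined next. The wider group of silent subunits, which like Kv9 modify Kv2 channels, holds 10 genes with the 3 Kv9 genes, and Kcnv2 was too low to test. Of the 9 tested, 7 had a limma log2 fold change below 0 and 2 above 0. Their median was -0.63, and 0 were called by limma and 1, Kcns1, by DESeq2. The log2 fold changes of the others were -0.63 for Kcng2, -0.47 for Kcnv1, 0.13 for Kcng1 and 0.27 for Kcnf1. Kcng3 had -0.82 (SE 1.12), which rested on ketamine mouse 9, with 4.53 normalized counts against 28.6 to 117 in the other mice, and DESeq2 gave -0.15. Kcng4 had -1.13 (SE 0.548), with 584 normalized counts in saline mouse 10 against 184 and 117 in the other saline mice and 91.3 to 131 in ketamine mice. Of these, Kcng2 did not overlap, with 125, 142 and 179 normalized counts in saline mice 1, 6 and 10, against 80.3, 96.9 and 109 in ketamine mice 3, 5 and 9 (limma adjusted p = 0.733). The Kv2 subunit gene Kcnb2 had a log2 fold change of -0.37 (SE 0.413), and overlapped. Amigo1, an adhesion protein that accompanies Kv2 channels, had a log2 fold change of 0.04 (SE 0.153). Of 6 genes of Kv2 channels and their partners examined here, 3 were lower and 3 higher by sign, with a median log2 fold change of 0.00. Both tested members of the small Kcne group of auxiliary subunits, Kcne1l and Kcne4, had log2 fold changes above 0, with 0 called.

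**Figure D3:**
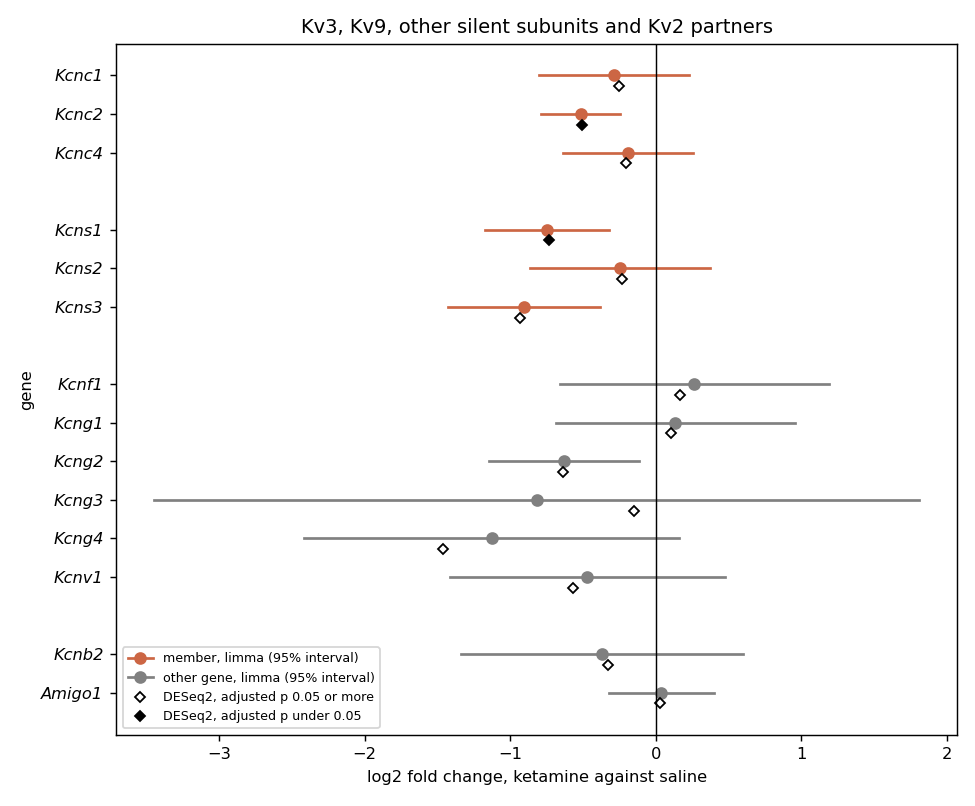
Log2 fold changes of ketamine against saline by limma, with 95% intervals, for the 6 Kv3 and Kv9 genes (orange) and for other silent subunits and Kv2 genes and partners (grey), with DESeq2 values as diamonds, filled where the adjusted p is under 0.05. Every orange value lies below 0, the intervals of Kcnc1, Kcnc4 and Kcns2 cross 0, and the diamonds of Kcnc2 and Kcns1 are filled.

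Some marker lists of the cells that the tissue could hold also differed between the groups. The part of the lists in the channel values was not tested. Of 16 genes of PV interneurons, 11 had a limma log2 fold change below 0 and 5 above 0 (median -0.13), and their mean log2 level relative to the saline mean overlapped between the groups, from -0.19 to 0.13 in saline and from -0.59 to 0.28 in ketamine mice. Their summed level was 56143 to 67837 normalized counts in saline and 44640 to 55714 in ketamine mice. Mef2c, which excitatory neurons also express, made up a large part of that sum. Without Mef2c, left out on values seen, the ranges overlapped, at 32099 to 44759 and 29989 to 43970. Sums without other genes of the list were not taken. The 2 with the smallest p had opposite signs, with -1.20 for Pvalb and 2.17 for Tac1, which striatal neurons also express. All 8 genes of GABAergic neurons in general had log2 fold changes above 0 (median 1.21), 7 of them without overlap, led by Dlx5 and Dlx6. Summed, they came to 25884 to 30353 normalized counts in saline and 35139 to 53861 in ketamine mice. The share of all genes that were higher in every ketamine mouse was not taken. All 10 genes of cortical excitatory neurons had log2 fold changes below 0 (median -0.69), 4 without overlap, and summed to 195087 to 245657 in saline and 110968 to 186355 in ketamine mice, with Neurod6 and Nptx1 leading. The 13 striatal genes had a median of 2.27, with Penk and Tmem90a leading and Six3 at 0 in every mouse, and the 8 olfactory bulb genes had a median of 3.05, with Cdhr1 and Ms4a15 leading. Medians were 0.13 for 8 thalamic, 0.06 for 6 astrocyte, -0.04 for 6 microglial and -0.09 for 6 endothelial genes. For the 6 oligodendrocyte genes the sign depended on the method, with a median of 0.30 by limma and of -0.36 by DESeq2, where all 6 were below 0. Limma called 0 genes of every list. DESeq2 called 4 of the GABAergic, striatal and olfactory bulb genes each as higher, Tac1 of the PV list as higher (adjusted p = 0.000126), and Pvalb (0.0321), Neurod6 of the excitatory list (0.00459) and Ramp3 of the thalamic list (0.0339) as lower.

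**Figure D4:**
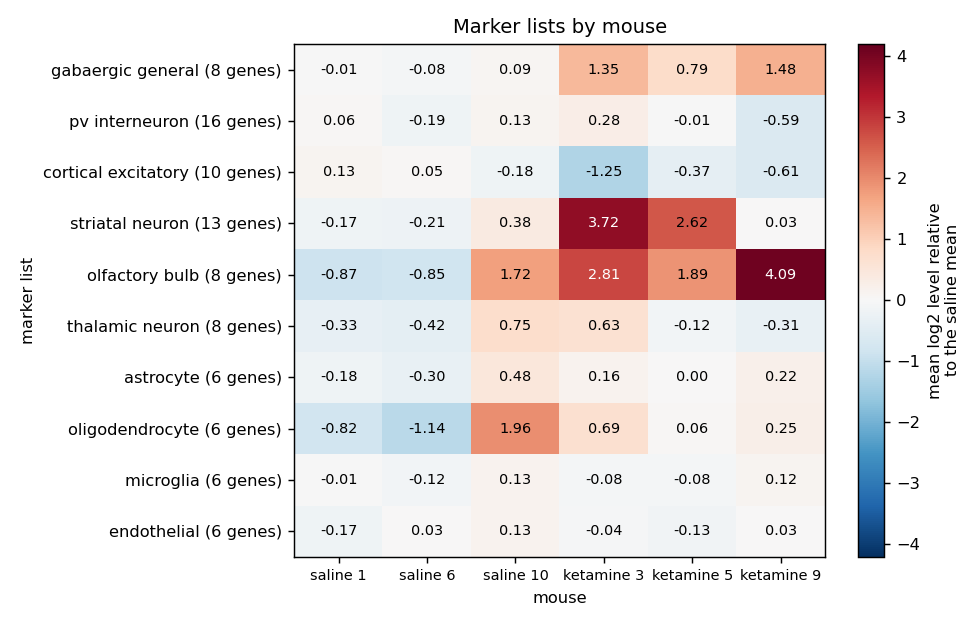
Mean log2 level of each list of marker genes (rows) in each mouse (columns), set to a saline mean of 0, in colour and as a printed value. Striatal genes stand at 3.72 and 2.62 in the libraries of ketamine mice 3 and 5 and at 0.03 in that of mouse 9. Olfactory bulb genes stand at 2.81, 1.89 and 4.09 in ketamine mice 3, 5 and 9, and at 1.7 in saline mouse 10. Oligodendrocyte genes stand at 1.96 in saline mouse 10, and PV interneuron genes between -0.59 and 0.28 in all mice.

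The 3 genes that separated the groups were followed through each library. They were picked for that separation, so leaving out mice could not make their groups overlap or turn their sign. Only the size of the difference could move. Leaving out ketamine mice 3 and 5 leaves ketamine mouse 9 alone and assumes that it varies like the saline mice. Mouse 9 stands apart too, with the highest sum of olfactory bulb genes, 8112 normalized counts. This set is therefore not free of differences between libraries in marker genes. In it, limma gave log2 fold changes of -0.63 for Kcnc2, -0.69 for Kcns1 and -1.04 for Kcns3. The others moved away from 0, to -0.75 for Kcnc1, -0.73 for Kcns2 and -0.31 for Kcnc4. In this reduced set DESeq2 gave -0.75 for Kcnc1, -0.62 for Kcnc2, -0.33 for Kcnc4, -0.70 for Kcns1, -0.75 for Kcns2 and -1.07 for Kcns3. Its calls are not given, because 1 ketamine mouse shows no spread within its group. Ketamine mouse 9 was below all saline mice for 5 of the 6 genes, as it was for 34.3% of all genes. Without that mouse, the limma values were -0.05 for Kcnc1 and -0.01 for Kcns2, against -0.46 for Kcnc2, -0.78 for Kcns1 and -0.84 for Kcns3.

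Without saline mouse 10, the values were -0.52 for Kcnc2, -0.84 for Kcns1 and -0.70 for Kcns3, and 4 of the 6 genes, now with Kcnc4, were lower in every ketamine mouse than in the remaining saline mice, as were 16.7% of all genes. Over the sets that left out 1 mouse, the limma log2 fold change ranged from -0.55 to -0.46 for Kcnc2, from -0.86 to -0.61 for Kcns1 and from -1.05 to -0.70 for Kcns3. It ranged from -0.41 to -0.05 for Kcnc1, from -0.38 to -0.09 for Kcnc4 and from -0.43 to -0.01 for Kcns2. DESeq2 called Kcnc2 in 3 of the 6 sets (adjusted p from 0.000462 to 0.387) and Kcns1 in 3 (adjusted p from 0.0191 to 0.621), and both calls were lost without saline mouse 1, saline mouse 6 or ketamine mouse 3.

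**Figure D5:**
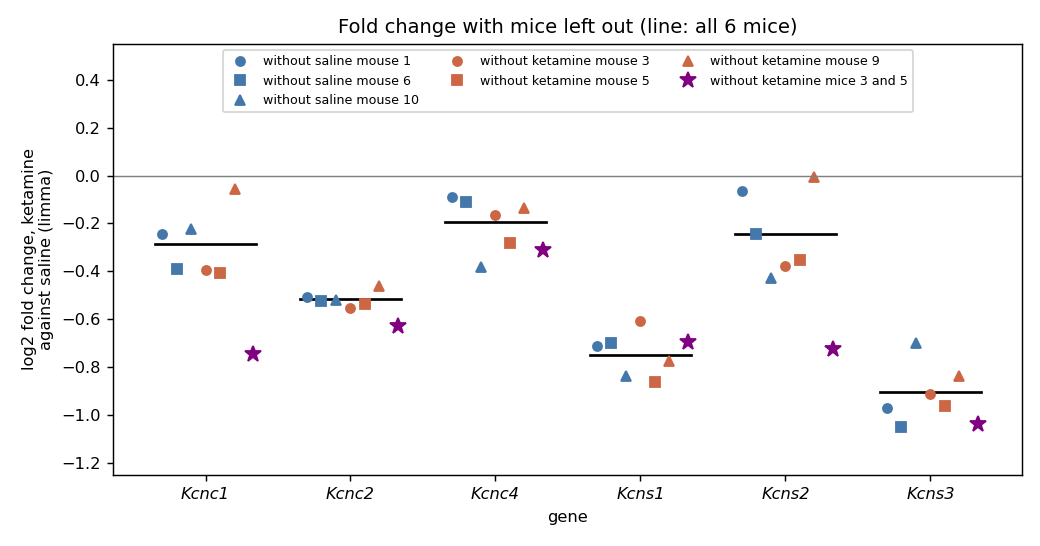
Log2 fold change of ketamine against saline by limma for each of the 6 genes, with all mice (black line) and with the named mice left out (symbols). The values of Kcnc2 lie between -0.63 and -0.46, those of Kcnc1 spread from -0.75 to -0.05 and those of Kcns2 from -0.73 to -0.01, with ketamine mouse 9 as the library whose omission brings the latter pair nearest to 0.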

How the data were processed

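Total RNA from the PLc of 6 mice, 3 per group, was sequenced as 100-base paired-end reads. Groups were taken from the sample titles. The authors aligned reads to mm9 with Tophat 2.0.11, counted them per gene with HTSeq and used DESeq2, per the labels and the study's methods. The annotation, strand setting and filters are not given in the sources used here. Each deposited value is a signal for 1 gene in 1 library, the read count after the authors scaled it by that library's size factor. Dividing by the smallest step gave whole reads, within 0.05, for 100.0% of values. Columns of no sample numbered 0.

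Log2(value + 1) was compared with limma 3.58.1 (R 4.3.3, trended prior variance, two-sided, Benjamini-Hochberg adjustment) in genes whose mean reached 10 normalized counts. Single values were also compared with an exact permutation test over mice. Alternatives were pseudocounts of 0.1 and 5, no filter and a filter of 100, upper-quartile and TMM scaling, no trend, edgeR 4.0.16 and DESeq2 1.42.0 on recovered reads, each mouse left out, ketamine mice 3 and 5 left out, and the longest transcript as length. DESeq2 with mice left out was added after seeing the data. Scripts were tested on simulated data.

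Coordinates and sequences are those of GENCODE M1 on mm9, which holds 37205 of the 37620 identifiers. Symbols came from the table for 20515 genes, and 16730 more were taken from a gene-name table. Named are the members, tested genes of the silent-subunit list, some of the Kv2 list, Pvalb, and the 2 genes most like each member. From the other lists, genes of smallest limma p are named, at most 2 by this rule, and none from some lists. Saline mouse 10, Kcnv2, Six3, Slc6a3, Th and Mef2c are singled out on values seen. Some genes of the lists are not reported here. The members, lists and comparisons were chosen with earlier results of these data known.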

Additional observations from a re-analysis of the deposited data

How the results depend on the processing

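Every log2 fold change of the 6 genes stayed below 0 under every alternative. For Kcnc2, Kcns1 and Kcns3, whose groups do not overlap, leaving out mice could not turn the sign. Without ketamine mouse 9, the limma values of Kcns2 and Kcnc1 were near 0, at -0.006 and -0.05. The pseudocounts, filters, scalings, absence of a trend and edgeR changed no call. DESeq2 changed the counts most, with 182 genes and 2 of the 6 called against 0 by limma. Leaving out 1 mouse, the genes called ranged from 0 to 501 (limma 0 to 1; DESeq2 83, 93 and 501 without saline mice 1, 6 and 10, and 103, 274 and 437 without ketamine mice 3, 5 and 9) and the members called from 0 to 2. Without ketamine mice 3 and 5, DESeq2 called 1268 genes and 2 of the 6. The calls by DESeq2 were at -0.51 for Kcnc2 and -0.73 for Kcns1 with all mice, and at -0.62 for Kcnc2 and -0.75 for Kcnc1 without ketamine mice 3 and 5. With 1 mouse left out by either tool, values ranged from -0.55 to -0.45 for Kcnc2 and from -0.86 to -0.61 for Kcns1, and the DESeq2 calls were at -0.51, -0.53 and -0.45 for Kcnc2 and -0.81, -0.85 and -0.75 for Kcns1 without saline mouse 10, ketamine mouse 5 and ketamine mouse 9. Of the ratios, 5 changed sign, with ranges of -0.13 to 0.22 for Kcnc4 to Kcns2, -0.28 to 0.16 for Kcnc1 to Kcnc4, -0.18 to 0.21 for Kcnc1 to Kcns2, -0.14 to 0.35 for Kcns1 to Kcns3 and -0.036 to 0.77 for Kcns1 to Pvalb. The saline level of Kcnc1 moved to 737 per kb with the longest transcript, a shorter length than the exon union. Other scalings moved the median of all genes by 0.017 at most on the log2 scale. No paired analysis was possible because the mouse numbers differ between the groups. Each of the 6 genes had 136 reads or more in every library. With 3 mice per group, a single library could move a value or a call. The cause of each change was not tested.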
